A study of Xenopus laevis with 30 samples.

Results

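The genes described here are transcription factor genes of the neural progenitor state in the frog Xenopus laevis: sox2, sox3, sox4, sox11, sox21, irx1, irx2, irx3 and zeb2. They were taken by name, as every entry of the deposited count tables that carries 1 of these symbols, with or without the ending L or S, plus LOC108701318, the identifier of zeb2.L. This gave 16 of 49109 entries for 9 genes. The L and S endings mark homeologs, the gene copies on the paired subgenomes of this allotetraploid species. Both copies were found for 7 genes, and only an L entry for sox2 and irx2.

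Sox2 and Sox3 belong to the SoxB1 group, which keeps neural precursors in a dividing, undifferentiated state, and Sox21 is a SoxB2 factor that works against them. Sox4 and Sox11 belong to the SoxC group, which acts as precursors start to become neurons. The Iroquois factors Irx1, Irx2 and Irx3 carry a homeodomain of the TALE class and help to set up and pattern the neural plate. Zeb2, also called Sip1, is a zinc finger and homeodomain repressor that is switched on in the early neural plate of Xenopus and lowers bmp4.

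The explants were animal caps, blastula ectoderm that follows whatever signals it is given. NWS explants came from embryos injected with noggin mRNA, wnt8 mRNA and an antisense morpholino against Sf3b4, a subunit of the splicing complex SF3b. NW explants came from embryos injected with the noggin and wnt8 mRNAs alone. Every explant thus carried the BMP antagonist and the Wnt ligand that together turn ectoderm into neural crest progenitors, and no uninjected cap was analysed here. Injection was at the 2-cell stage, caps were cut at stage 8 to 9, and culture lasted 8 hours. RNA came from individual explants. Libraries were sequenced either with ribosomal RNA taken out (depleted) or with it left in (undepleted), which gives 4 groups of 3 libraries numbered 1 to 3.

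Depth limits everything that follows. The 12 libraries held 351902 to 4339788 counts, but 5 entries took 21.5% to 92.5% of them in the depleted and 52.2% to 97.8% in the undepleted libraries. Counts of the members came to 236 to 4085 per depleted library and 219 to 3490 per undepleted library, and NW library 3 alone held 62.8% and 57.5% of the members' counts in its preparation. On the CPM scale, on which counts are scaled to the effective library size, a floor of 3 counts stood for 0.268 to 7.58 CPM with depletion and 0.110 to 2.76 CPM without it. The preparations were scaled separately, so their CPM levels are not set against each other except where a common scale is named. The targeted transcript sf3b4.L averaged 20.4 ± 14.6 CPM in NWS and 19.1 ± 7.32 CPM in NW depleted libraries, and 8.02 ± 3.93 CPM in NWS and 6.73 ± 3.24 CPM in NW undepleted libraries (SD, n = 3 each). sf3b4.S averaged 10.1 ± 5.58 CPM in NWS and 17.9 ± 2.92 CPM in NW depleted libraries, and 6.69 ± 2.65 CPM in NWS and 7.54 ± 4.17 CPM in NW undepleted libraries, and a morpholino need not lower the mRNA it binds, so these levels do not check the knockdown.

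Per length, sox3, sox11 and zeb2 were the strongest of the 9 genes and sox21, sox4 and irx3 the weakest. Levels between genes were compared on the deposited FPKM values, which are counts scaled for gene length and library, with homeologs added. In depleted libraries sox3 averaged 87.2 ± 36.6 FPKM in NWS and 40.3 ± 33.4 FPKM in NW (SD, n = 3 each). sox11 averaged 38.7 ± 7.59 FPKM in NWS and 41.6 ± 24.0 FPKM in NW, and zeb2 37.4 ± 5.41 FPKM in NWS and 31.6 ± 8.13 FPKM in NW. The Iroquois genes followed, with irx1 at 29.3 ± 10.4 FPKM in NWS and 19.0 ± 10.3 FPKM in NW, and irx2.L at 19.6 ± 15.1 FPKM in NWS and 6.66 ± 4.72 FPKM in NW. In the NWS depleted libraries the lowest sox3 value, 50.4 FPKM, lay above the highest sox11 value, 46.0 FPKM. In the NW depleted libraries every gene overlapped the next in order, so that order is not resolved there. Among undepleted libraries, irx2.L lay apart from the next lower gene in NWS (sox2) and in NW (sox4), and all other neighbours overlapped. The sox3.S entry stood at the 99.2 percentile by mean FPKM of the 27582 entries with a count in the depleted libraries, and at 99.1 of 28381 in the undepleted ones.

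**Figure D1:**
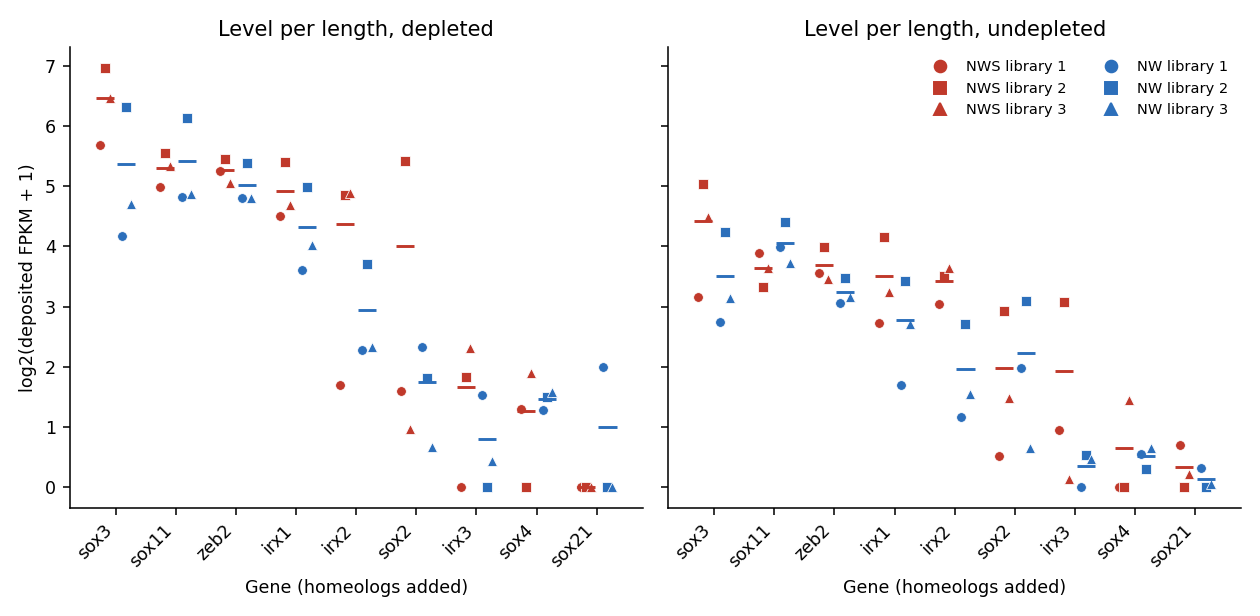
Level per length of the 9 genes, as log2(deposited FPKM + 1) with homeologs added, in depleted (left) and undepleted (right) libraries. Points are libraries, bars are the group mean; sox3, sox11, zeb2 and irx1 sit highest and irx3, sox4 and sox21 lowest, with wide overlap between neighbours.

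Sox2, the factor most often used to mark the neural plate, was low in counts, with at most 31 in a library. sox2.L had 1, 31 and 1 counts in NWS depleted libraries 1, 2 and 3, and 8, 1 and 7 counts in the NW ones. The undepleted libraries gave 2, 7 and 7 counts in NWS and 15, 8 and 16 counts in NW. The depleted NWS mean of 15.8 ± 24.8 CPM therefore rested on library 2 alone, at 44.5 CPM, and the undepleted library of that number held 7 counts. The sox2.L entry did not reach the filter on low counts in either preparation and was not tested for treatment by edgeR. DESeq2, which kept it, gave a log2 fold change of 2.74 (adjusted p = 0.871) with depletion and -0.34 (adjusted p = 0.996) without it. The length behind its FPKM values, read back from counts and FPKM, was 920 bases, against 1654 for sox3.S and 4676 for sox11.S. By mean FPKM sox2.L stood at the 93.4 percentile of entries with a count in the depleted libraries, and at 95.3 in the undepleted ones.

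No member passed the test for the morpholino in either preparation. Counts were tested with edgeR's quasi-likelihood test at a Benjamini-Hochberg adjusted p under 0.05 over all tested entries. In the depleted libraries 10 of the 16 members could be tested and 0 were called, where 0% of 6585 entries were called. For the undepleted libraries 9 could be tested and 0 were called, against a background of 0.0159% of 6284 entries. At an unadjusted p under 0.05 edgeR had 0 members with depletion, against 3.72% of all entries, and 1, irx2.L, without it, against 4.03%. DESeq2 also called 0, against 9 of 9840 entries with depletion and 19 of 8502 without it. limma-voom called 0, against 2 of 6585 and 1 of 6284 entries. Members at an unadjusted p under 0.05 numbered 0 and 2 (irx2.L and irx3.S) by DESeq2, and 3 and 2 by limma-voom. Paired by library number, 0 members were called by edgeR against 0.197% of all entries with depletion and 0.223% without it. At an unadjusted p under 0.05 the paired fit had 1 member with depletion, sox3.S, and 2 without it, irx1.L and irx2.L. Shares of all entries at that p are not given for DESeq2, limma-voom or the paired fit, so these member counts have no background. Among the 10 tested with depletion 9 were higher and 1 lower in NWS, and their median log2 fold change was 0.64, where the median of all entries was -0.03. In the undepleted libraries 7 of 9 were higher and 2 lower, with a median of 0.81 against -0.04 for all entries. Standard errors of the single fold changes were 0.63 to 1.44 with depletion and 0.61 to 1.02 without it.

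**Figure D2:**
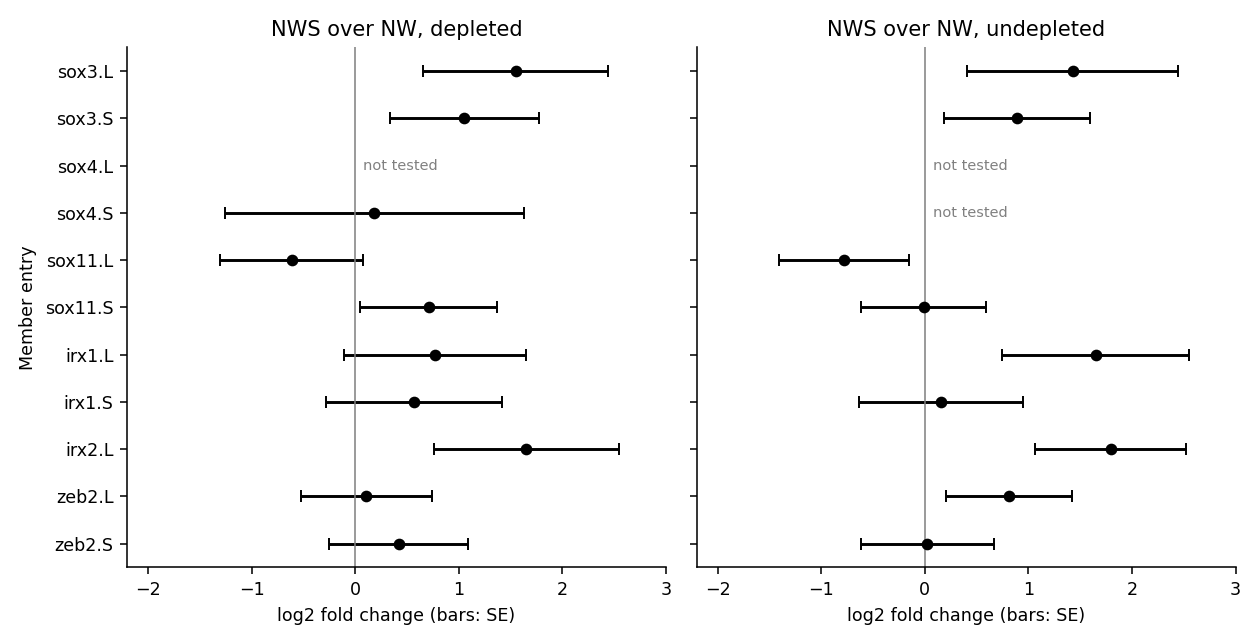
Log2 fold change of NWS over NW for the member entries with a mean of at least 10 counts in either preparation, depleted (left) and undepleted (right), with SE bars. The sox3 and irx2.L values lie above 1 or close to it and sox11.L below 0, and no adjusted p passed.

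Of the SoxB1 genes, sox3.S carried most of the counts. It stood at 70.6, 155 and 132 CPM in NWS depleted libraries 1 to 3, and at 18, 119 and 40.9 CPM in the NW ones. Undepleted libraries gave 9.27, 50.3 and 33.6 CPM in NWS and 8.22, 30.4 and 12.6 CPM in NW. The NWS library was higher than the NW library of its number in 3 of 3 numbers of each preparation, yet the groups overlapped in both preparations. On the log2 scale NWS exceeded NW by 1.05 ± 0.72 (SE, edgeR adjusted p = 0.999) with depletion and by 0.89 ± 0.71 (edgeR adjusted p = 1.00) without it. With single libraries left out these ran from 0.65 to 1.97 with depletion and from 0.46 to 1.54 without it. The highest value of each preparation came without NW library 2.

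Its homeolog sox3.L was lower in counts and leaned the same way. Depleted values were 17.7, 81.7 and 21.2 CPM in NWS and 13, 22.7 and 7.67 CPM in NW. Without NWS library 2 the log2 fold change of 1.55 ± 0.90 (edgeR adjusted p = 0.999) was 0.51. Undepleted values were 4.03, 5.49 and 3.95 CPM in NWS and 1.28, 0.920 and 2.32 CPM in NW, and these groups did not overlap. The fold change there was 1.43 ± 1.02 on the log2 scale (edgeR adjusted p = 1.00), on 6 to 20 counts per NWS library and 1 to 63 per NW library. With L and S counts added, sox3 gave 1.15 ± 0.68 and 0.96 ± 0.67.

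The SoxB2 gene sox21 was barely present. sox21.L and sox21.S had no counts in any NWS depleted library, and 1 and 5 counts in NW library 1 of that preparation. Undepleted sox21.L had 18, 0 and 4 counts in NWS and 8, 0 and 0 counts in NW. These values do not separate the groups.

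Among the SoxC genes, the homeologs of sox11 had depleted fold changes of opposite sign, neither of which passed the test. sox11.L stood at 35.3, 88.9 and 49.7 CPM in NWS depleted libraries, and at 59.4, 152 and 59.3 CPM in the NW ones. Without depletion it stood at 27.2, 9.15 and 16 CPM in NWS and at 29.4, 38.6 and 24.2 CPM in NW. The NWS library was the lower one in 3 of 3 numbers of each preparation, and the log2 fold change was -0.61 ± 0.69 with depletion (edgeR adjusted p = 0.999) and -0.78 ± 0.63 without it (edgeR adjusted p = 1.00). With single libraries left out, sox11.L ran from -1.03 to -0.07 with depletion and from -1.20 to -0.41 without it. sox11.S stood at 92.2, 96.1 and 109 CPM in NWS and at 37.4, 93.4 and 53.5 CPM in NW depleted libraries. Its log2 fold change was 0.71 ± 0.66 there (edgeR adjusted p = 0.999). Without depletion it was -0.01 ± 0.61 (edgeR adjusted p = 1.00), from NWS values of 19.3, 29.3 and 29.1 CPM and NW values of 20.1, 34.0 and 24.6 CPM. The groups of each homeolog overlapped in both preparations, and with L and S added sox11 gave 0.07 ± 0.61 and -0.39 ± 0.56.

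The other SoxC gene among the members, sox4, was weak. In the depleted libraries sox4.L had 0, 0 and 3 counts in NWS and 6, 1 and 46 in NW, and sox4.S had 3, 0 and 9 in NWS and 6, 2 and 54 in NW. Scaled to depth, the NW values of sox4.L were 3.00, 2.53 and 4.1 CPM, below or near the floors of 5.89, 4.30 and 2.76 CPM in the NWS libraries. A lower level of sox4.L in NWS was therefore not detectable at this depth. The tested entry, sox4.S in the depleted libraries, gave 0.19 ± 1.44 (edgeR adjusted p = 0.999).

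Of the Iroquois genes, irx2.L had the largest fold change among the members that edgeR tested in each preparation. Undepleted values were 18.1, 27.4 and 30.1 CPM in NWS and 3.11, 14.7 and 5.52 CPM in NW, so every NWS library lay above every NW library. The log2 fold change was 1.79 ± 0.73 (edgeR unadjusted p = 0.0208, adjusted p = 1.00). Depleted values were 5.89, 80.3 and 75.5 CPM in NWS and 10.5, 32.8 and 11.7 CPM in NW. There NWS library 1, with 3 counts, lay below all NW libraries, and the log2 fold change was 1.65 ± 0.89 with it (edgeR adjusted p = 0.999) and 2.24 without it (edgeR adjusted p = 0.666). With single libraries left out it ran from 1.28, without NWS library 2, to 2.25, without NW library 2, and undepleted from 1.38, without NW library 1, to 2.53, without NW library 2. Paired by library number it was 1.24 with depletion (edgeR adjusted p = 1.00) and 2.00 without it (edgeR adjusted p = 0.330).

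irx1.L followed with 5.84, 22.9 and 9.38 CPM in NWS and 0.914, 8.28 and 3.76 CPM in NW undepleted libraries. The NWS library was the higher one in 3 of 3 numbers there, by 1.65 ± 0.90 on the log2 scale (edgeR adjusted p = 1.00), which was 1.02 without NWS library 2 and 2.31 without NW library 2. In the depleted libraries it stood at 25.5, 33.0 and 40.5 CPM in NWS and 4.99, 37.9 and 18.5 CPM in NW. The fold change there was 0.77 ± 0.88 (edgeR adjusted p = 0.999), or 0.30 without NW library 1 and 1.44 without NW library 2. irx1.S stood at 21.6, 63.1 and 13.8 CPM in NWS and 19.5, 30.3 and 17.8 CPM in NW depleted libraries. Its log2 fold change there was 0.57 ± 0.85, and -0.33 without NWS library 2. Undepleted irx1.S values were 5.8, 13.7 and 8.9 CPM in NWS and 3.7, 12.9 and 9.1 CPM in NW, with 0.16 ± 0.79. With L and S counts added, irx1 gave 0.65 ± 0.70 with depletion and 0.81 ± 0.71 without it. irx3.L had no counts in any NW library and 1 to 5 counts in the NWS undepleted ones, with 1 count in 1 NWS depleted library, and irx3.S had at most 23 counts in any library. By DESeq2 undepleted irx3.S gave a log2 fold change of 3.24 (unadjusted p = 0.0389, adjusted p = 0.760), on 5, 16 and 0 counts in NWS and 0, 1 and 23 in NW. The S copy of irx2, listed as LOC108720018 and outside the chosen names, stood at 23.6, 8.60 and 6.45 CPM in NWS and 3.99, 0 and 5.71 CPM in NW depleted libraries, on 0 to 64 counts. Without depletion it stood at 1.01, 6.41 and 1.73 CPM in NWS and 0.366, 0 and 0.663 CPM in NW, on 0 to 18 counts. Its groups did not overlap in either preparation, as was so for 8.64% of all tested entries with depletion and 8.00% without it. NW library 2 held 0 counts, and a floor of 3 counts there stood for 7.58 CPM with depletion and 2.76 CPM without it. Both floors lay above the lowest NWS value, so the separation is not established at this depth. The test of irx2.S with depletion gave 1.72 ± 1.25 (edgeR adjusted p = 0.999). Without depletion edgeR did not test it and DESeq2 gave 2.74 (unadjusted p = 0.0477, adjusted p = 0.821).

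The zeb2 homeologs were among the best counted members, and their depleted groups overlapped. zeb2.L (LOC108701318) stood at 76.5, 133 and 110 CPM in NWS and 78.4, 129 and 91.1 CPM in NW depleted libraries, and NWS exceeded NW by 0.11 ± 0.63 on the log2 scale (edgeR adjusted p = 0.999). Undepleted values were 27.4, 35.7 and 32.8 CPM in NWS and 18.6, 11.0 and 23.9 CPM in NW, which do not overlap, with 0.81 ± 0.61 (edgeR adjusted p = 1.00). zeb2.S stood at 110, 94.6 and 44.2 CPM in NWS and 56.9, 75.8 and 53.4 CPM in NW depleted libraries, with 0.42 ± 0.67, and gave 0.03 ± 0.64 in the undepleted ones. For zeb2 with both copies added the fold changes were 0.24 ± 0.58 and 0.42 ± 0.56, whose standard errors leave room for a change of either sign.

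**Figure D3:**
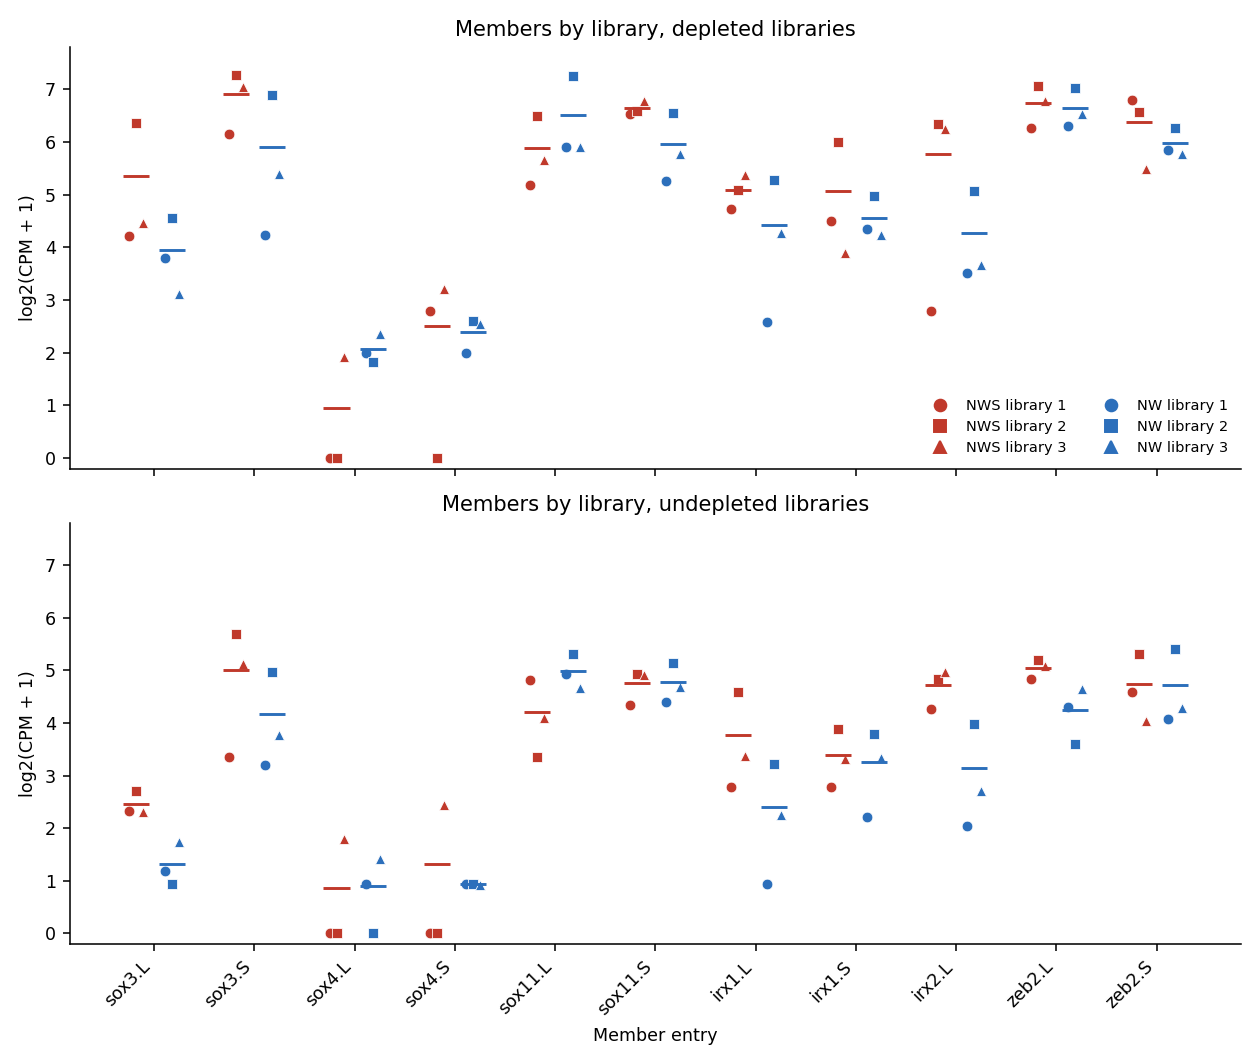
Level of the member entries with a mean of at least 10 counts in either preparation, as log2(CPM + 1), in depleted (top) and undepleted (bottom) libraries. Points are libraries, with the shape giving the library number, and bars mark the mean CPM; for irx2.L, sox3.L and zeb2.L all undepleted NWS points lie above the NW points, and in the depleted panel every pair of groups overlaps.

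Counting groups that did not overlap, 3 of the 9 tested members in the undepleted libraries had every NWS value above every NW value, and none had the reverse. Of all tested entries there 8.00% had groups that did not overlap, 4.25% with NWS higher. In the depleted libraries 0 of 10 tested members did, against 8.64% of all entries. The preparations were also compared directly. In a model of all 12 libraries, edgeR called 0 of 13 tested members for the treatment-by-preparation interaction, against 0% of 13224 entries. DESeq2 called 0 of 16 members, against 0 of 30988 entries. At an unadjusted p under 0.05 edgeR had 0 members, against 1.75% of all entries. DESeq2 also had 0 at that p, with no share of all entries to set beside it. Whether the morpholino effect on irx2.L or zeb2.L differs between preparations was thus not resolved.

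Depletion itself moved no member past the threshold. For depleted over undepleted libraries, with both treatments, 0 of 13 tested members and 0.0378% of all entries were called by edgeR, and member fold changes ran from -0.86 to 1.33 on the log2 scale. The highest was sox3.L (1.33 ± 0.67, edgeR adjusted p = 1.00). On a common scale it averaged 21.3 ± 19.1 CPM in NWS depleted and 8.32 ± 1.12 CPM in NWS undepleted libraries, and 7.31 ± 3.21 CPM in NW depleted and 2.64 ± 1.28 CPM in NW undepleted libraries. At an unadjusted p under 0.05 edgeR had 0 members, against 1.94% of all entries. DESeq2, which called 0, had 1, sox3.L, with no share of all entries to set beside it. No fit paired the depleted with the undepleted library of the same treatment and number. Such libraries may share their RNA, so a shift within these pairs was not tested.

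The homeolog pairs differed in balance. The share of L in the L plus S counts does not depend on how libraries are scaled, but reads that match both copies may have been dropped or split. The counts behind it are not scaled for entry length, which read back from FPKM was 2746 bases for sox11.L and 4676 for sox11.S. sox3 came mostly from S: the L share averaged 22.8% ± 10.6 in NWS and 24.6% ± 15 in NW depleted libraries, and 16.9% ± 11.6 in NWS and 10.7% ± 6.77 in NW undepleted libraries (SD, n = 3 each). It lay below 50% in all 12 libraries. zeb2 averaged 56.9% ± 15.2 in NWS and 61.3% ± 2.93 in NW depleted libraries, and 56.9% ± 10.3 in NWS and 43.8% ± 19.7 in NW undepleted libraries.

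Of the better counted pairs sox3, sox11, irx1 and zeb2, only sox11 had depleted groups that did not overlap. L made up 27.7%, 48.1% and 31.4% of sox11 counts in NWS libraries 1 to 3, against 61.3%, 61.9% and 52.6% in the NW ones, and the groups did not overlap. The exact 95% Clopper-Pearson intervals, which cover counting error only, ran from 17.3% to 40.2% in NWS library 1 and from 54.1% to 68.2% in NW library 1. An exact two-sided permutation test gave p = 0.1, the smallest that 3 against 3 libraries allow. Undepleted libraries gave 58.4%, 23.8% and 35.5% in NWS and 59.4%, 53.2% and 49.6% in NW (exact permutation p = 0.3). There the shares of NWS library 1 and NW library 1 were nearly equal. For irx1 it was the undepleted libraries that did not overlap, with an L share of 50%, 62.5% and 51.4% in NWS and 20%, 39.1% and 29.2% in NW (exact permutation p = 0.1), while the depleted ones gave p = 0.5. Over the 8 such tests of sox3, sox11, irx1 and zeb2 the smallest Benjamini-Hochberg adjusted p was 0.4. How many of all homeolog pairs had shares that did not overlap is not given, so the separations of sox11 and irx1 have no background.

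**Figure D4:**
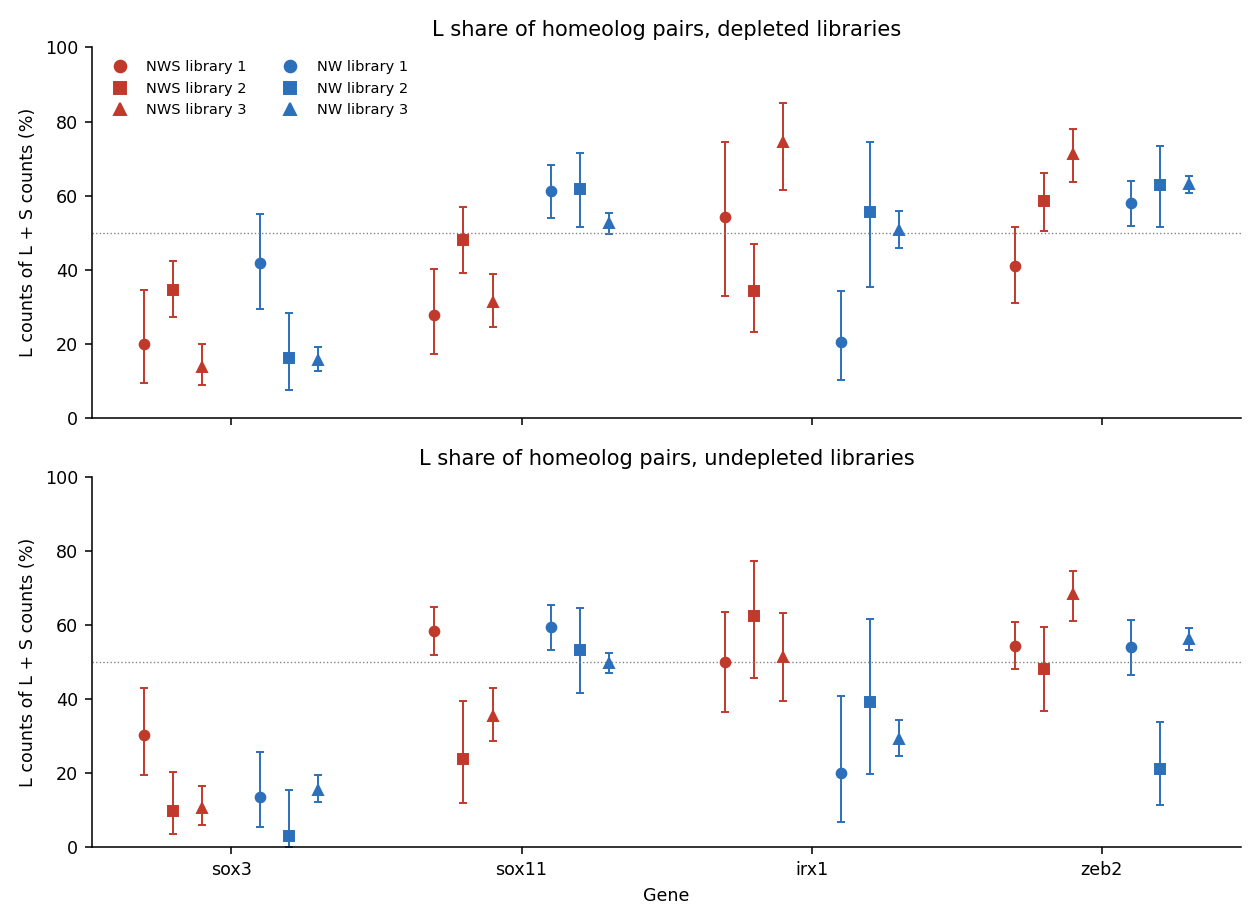
Share of L counts in the L plus S counts, in percent, for sox3, sox11, irx1 and zeb2 in each library, depleted (top) and undepleted (bottom). Bars are exact 95% binomial intervals; in the depleted libraries all 3 NWS shares of sox11 lie below the NW shares, and in the undepleted libraries all 3 NWS shares of irx1 lie above.

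The members also varied between libraries of the same group. Libraries numbered 2 were set against those numbered 1 and 3, with treatment as a term. They were also the libraries most taken up by the 5 dominant entries. These held 92.5% of NWS and 90.2% of NW library 2 with depletion, against 21.5% to 66.8% of the others. Without depletion they held 97.8% of each, against 52.2% to 91.4% of the others, which left 87172 counts in NWS and 94882 in NW library 2. The part of depth in the member differences was not tested. With depletion 9 of 10 tested members were higher in number 2, with a median log2 difference of 1.13, where all entries had -0.29. In the undepleted libraries 6 of 9 were higher, with a median of 1.03 where all entries had -0.45. By edgeR 0 members were called with depletion, against 0.972% of all entries, and 0 without it, against 0.907%. At an unadjusted p under 0.05 edgeR had 1 member with depletion, against 13.8% of all entries, and 2 without it, against 13.5%. DESeq2, which called 0, had 2 and 3, with no share of all entries to set beside them. The neural gene sox3.S gave 1.45 ± 0.64 and 1.52 ± 0.60 (edgeR adjusted p = 0.308 and 0.223), and irx1.L 1.04 ± 0.94 and 1.81 ± 0.84 (edgeR adjusted p = 0.663 and 0.315). Without NW library 2 the depleted differences were 0.67 for sox3.S and 0.0202 for irx1.L, and without NWS library 2 they were 2.07 and 1.87. sox11.L gave 1.21 ± 0.65 (edgeR adjusted p = 0.399) with depletion and -0.20 ± 0.65 (edgeR adjusted p = 0.919) without it. Libraries of a number in the depleted and undepleted sets may share their RNA, so the preparations are no independent repeat.

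**Figure D5:**
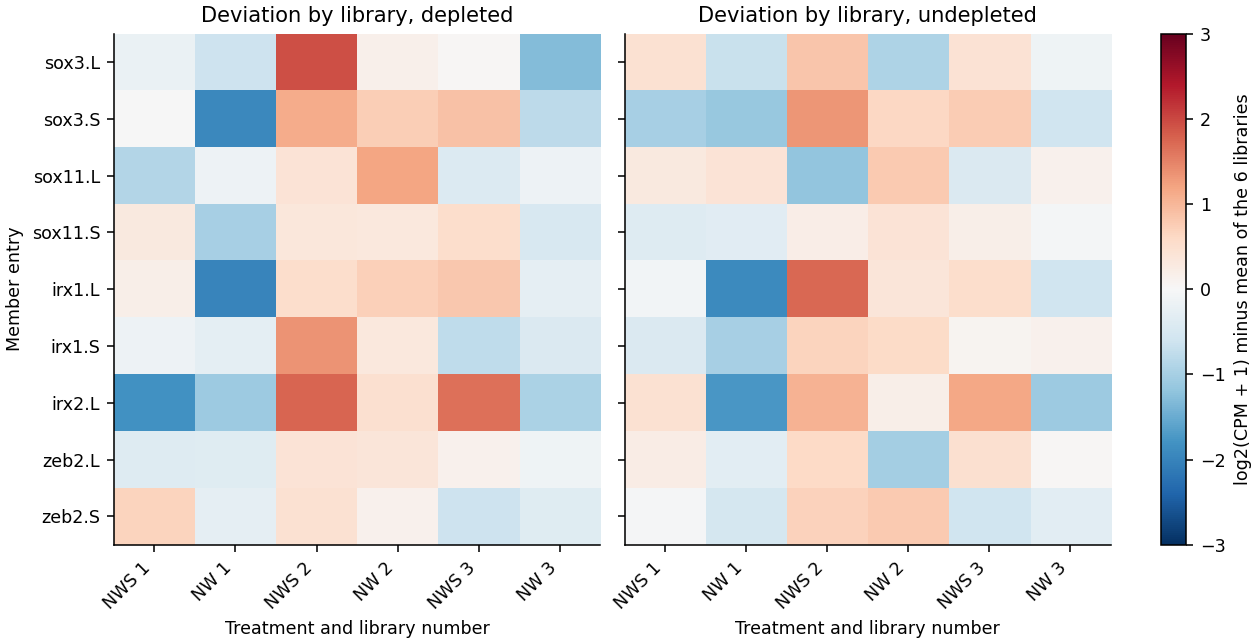
Deviation of log2(CPM + 1) from the mean of the 6 libraries of a preparation, with libraries side by side by number. Shown are the member entries with a mean of at least 10 counts in either preparation, other than sox4. NW library 1 is lowest for irx1.L in both panels, and NWS library 2 is highest for sox3.S and irx1.S in both.

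Genes that mark neural crest ran in a different library order. sox10, a crest specifier, stood with both copies added at 100, 0 and 0 CPM in NWS and 157, 12.6 and 298 CPM in NW depleted libraries 1 to 3. snai2, a repressor of the early crest, stood at 135, 25.8 and 23.9 CPM in NWS and 130, 17.7 and 213 CPM in NW. The depleted libraries with the higher values, NWS library 1 and NW libraries 1 and 3, were those with the lower values of sox3.S and irx2.L given above. Without depletion the same held for sox3.S but not for irx2.L, which was higher in NWS library 1 than in NW library 2. With depletion sox3.L, sox11.S, irx1.L and zeb2.L split the libraries in that way too. The other tested members, sox4.S, sox11.L, irx1.S and zeb2.S, did not. Depleted zeb2.S was highest in NWS library 1, at 110 CPM, and irx1.S was lowest in NWS library 3, at 13.8 CPM. Over the whole crest list, 6 of 28 tested entries were higher and 22 lower in NWS with depletion (median log2 fold change -0.85), and 5 higher and 23 lower without it (-0.93). Its most abundant entries with depletion were ets1.L, at 53.4 ± 71.5 CPM in NWS and 153 ± 91.5 CPM in NW, and tfap2b.S, at 80.8 ± 100 CPM in NWS and 149 ± 42.5 CPM in NW, and without it tfap2b.S and snai2.L. In the fit without pairing 0 passed in each preparation. At an unadjusted p under 0.05 that edgeR fit had 3 entries with depletion and 4 without it, against 3.72% and 4.03% of all entries. Paired by library number 1 passed, sox10.S in the undepleted libraries (log2 fold change -4.16, edgeR adjusted p = 0.0126). Without pairing its log2 fold change there was -2.84 ± 1.11. Undepleted sox10, with both copies added, stood at 32.8, 0 and 0.247 CPM in NWS and 62.5, 1.84 and 92.9 CPM in NW. The summed level of the list ran from 602 to 1972 CPM in NWS and from 1078 to 2527 CPM in NW depleted libraries. Its part in the values of the members was not tested.

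Other genes of the neural plate showed no call. Of 48 entries of that list 26 were tested in the depleted libraries, 16 higher and 10 lower in NWS (median 0.18). In the undepleted ones 25 were tested, 15 higher and 10 lower (0.34). By edgeR 0 passed in either preparation, with or without pairing. At an unadjusted p under 0.05 edgeR without pairing had 1 of them with depletion and 2 without it, against 3.72% and 4.03% of all entries. Next to gli3.S and hes4.L, the most abundant was gli3.L, for a transcription factor of Hedgehog signalling, at 241 ± 163 CPM in NWS and 106 ± 50.6 CPM in NW depleted libraries (log2 fold change 1.2 ± 0.67, edgeR adjusted p = 0.999). Of the remaining SoxB, SoxC, Irx and Zeb genes a single entry could be tested, irx4.S. It averaged 16.6 ± 8.71 CPM in NWS and 4.43 ± 3.3 CPM in NW depleted libraries (log2 fold change 2.05 ± 1.19, edgeR adjusted p = 0.999). Without depletion it averaged 6.72 ± 1.41 CPM in NWS and 1.18 ± 1.39 CPM in NW libraries (3.05 ± 1.15, edgeR adjusted p = 1.00). The unadjusted edgeR p of irx4.S was under 0.05 without depletion but not with it. Its L copy, irx4.L, was not tested. Genes of neuronal differentiation were few: 1 of 5 tested entries was higher in NWS with depletion (median -0.96) and 1 of 7 without it (median -0.88), with 0 called by edgeR, DESeq2 or the paired fit and 0 at an unadjusted p under 0.05. The most abundant of them, myt1.S, for a zinc finger factor of early neurons, averaged 96.8 ± 129 CPM in NWS and 144 ± 170 CPM in NW depleted libraries, followed by myt1.L.

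Markers of endoderm, mesoderm, placode and pluripotency were mostly low, while the summed epidermis list reached 367 CPM in an NWS and 430 CPM in an NW depleted library. Of 19 endoderm entries 11 were at 0 in every depleted and 14 in every undepleted library, and the sox17 copies had at most 5 counts together in any library. Their most abundant entries were gata6.S and cer1.S, and their summed level ran from 0 to 27.5 CPM in NWS and from 0.499 to 6.6 CPM in NW depleted libraries. The mesoderm list, led by chrd.L, summed to 14.7 to 53.1 CPM in NWS and 14.1 to 121 CPM in NW, and its muscle genes actc1 and myod1 had 104 and 53 counts in NW depleted library 1, the lowest library for irx1.L, but actc1 had 0 counts in all other depleted libraries. The epidermis list, led by krt5.7.L with tp63.L or krt5.7.S, summed to 56.2 to 367 CPM in NWS and 73.6 to 430 CPM in NW, and the placode list, led by dlx5.L and eya1.S, to 15.8 to 38.7 CPM in NWS and 19.4 to 22.7 CPM in NW. The pluripotency gene pou5f3.1 had 21.6, 21.5 and 27.6 CPM in NWS and 0, 0 and 1.16 CPM in NW depleted libraries, and its list ran from 29.4 to 63.5 CPM in NWS and from 3.12 to 15.2 CPM in NW. In undepleted libraries pou5f3.1 had 5.24, 1.83 and 8.14 CPM in NWS and 0, 0 and 1.40 CPM in NW. The 1 tested entry of its list, undepleted pou5f3.1.S, gave 3.49 ± 1.35 on the log2 scale. Its edgeR unadjusted p was under 0.05, and it was not called. The part of these cell types in the values of the members was not tested. In whole explants, fewer cells of a type and less RNA per cell cannot be told apart.

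The genes with the pattern most like that of a member were named by Pearson's r of log2(CPM + 1) over the 12 libraries, after the mean of each preparation was subtracted, out of 4437 genes tested in both preparations. These values are a description, since libraries of a number may share RNA and all share their scaling. For sox3 they were gli3 (r = 0.960), tp53inp1 (0.957) and LOC108718510 (0.937). irx2 came closest to rere (0.894), the Wnt feedback gene axin2 (0.881) and the Wnt receptor gene fzd10 (0.878), and LOC108701205 (0.921) and axin2 (0.910) were among the closest to irx1. For zeb2 they were LOC108715299 (0.958), LOC108701205 (0.932) and LOC108714480 (0.931), and for sox11 LOC108698074 (0.870), cpsf1 (0.862) and kat8 (0.851). The closest genes of sox2, sox4, sox21 and irx3 reached 0.784 to 0.931, on the low counts given above.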

How the data were processed

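The submitters' processing notes list the tools DESeq2, featureCounts, STAR and bcl2fastq. Not given in the sources used here: their versions, the build, the annotation and the use of strand. Homeolog and antisense reads are therefore uncertain. The authors deposited raw counts per gene entry and library, with the lanes of a library already added up (30 runs, 12 libraries), and FPKM values; counts divided by FPKM show that these are scaled by size factors and not by the total count. Library numbers were read from the run titles, since the source names of the NWS undepleted runs count fewer replicates. The labels name biological replicates but no separate clutches, so p-values measure the spread between these libraries. Symbols were matched to the RefSeq gene table of Xenopus laevis v10.1, which holds all 16 members.

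The test on the deposited counts was the quasi-likelihood test of edgeR 4.0.16 (R 4.3.3), run separately for each preparation. Libraries were scaled by TMM, entries were kept by filterByExpr (minimum count 10), treatment was the only term, and p-values were adjusted over all tested entries. The test returns no standard error, so each SE of an edgeR fold change was worked back from the fold change and the F statistic. DESeq2 1.42.0 and limma-voom (limma 3.58.1) were alternatives, besides other scalings and filters, the replicate block, homeologs summed and libraries left out. The fit was tested on simulated data. Its recovery there is not reported here, so that run does not show which sizes of change the fit could find. CPM values use the TMM effective library size of their preparation, except on the common scale of all 12 libraries. Deviations of same-numbered NWS and NW libraries from their group means correlated weakly, at 0.139, 0.248 and 0.155 with depletion and 0.210, 0.244 and 0.131 without it. Pairs of different numbers ran from -0.189 to 0.0657 with depletion and from -0.215 to 0.0593 without it. Deviations cancel within a group, so higher values for some pairs lower those of others, and these correlations do not establish a pairing. The labels state no pairing. The numbers therefore pair the libraries in the replicate block only, and the main fit does not use them. Members with a mean of at least 10 counts, and some below it, are given per library, other than zeb2.S and sox4.L in the undepleted libraries. Outside the members, the named genes are the 3 closest genes of each well-counted member (1 of them is not reported here), the 2 most abundant entries of each list per preparation, any list entry called, and sf3b4. Values of irx2.S, sox10, snai2, sox17, actc1, myod1 and pou5f3.1 beyond this rule, and the test of L shares, were chosen after the values were seen. The members, the lists and the comparison of library numbers were chosen with earlier results of these data known. Figures used Python 3.11.15 with matplotlib 3.10.9.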

Additional observations from a re-analysis of the deposited data

How the results depend on the processing

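No alternative called a member: the count was 0 in all 19 alternatives of NWS against NW in each preparation, in all 18 of the interaction and of depletion, and in all 10 of each comparison of library numbers. Single fold changes were followed for 29: those of all tested members for NWS against NW, and of some members for depletion and library numbers. The rest, with all of the interaction, are not covered. The smallest adjusted p of the 29 was 0.145, with DESeq2, for sox3.S between undepleted library numbers. Paired by library number (replicate block), 0 members passed in each preparation and no call changed, although 13 and 14 of all entries passed, against 0 and 1 without the block. Of the 29 fold changes followed, 22 kept their sign in every alternative run. The sign turned for depleted irx1.S without both libraries numbered 2 (-0.10), depleted sox4.S with limma-voom (-0.28), and undepleted zeb2.S at a minimum count of 30 (-0.019). Undepleted sox11.S, at -0.01, turned to 0.0522 without the dominant entries, 0.0365 with DESeq2, 0.17 without both libraries numbered 2, 0.0282 with upper-quartile scaling, 0.0252 with limma-voom, 0.0852 in the fit of all 12 libraries and 0.32 with both preparations summed. With single libraries left out, fold changes ran from -0.62 to 0.77 (sox4.S), -0.33 to 0.94 (irx1.S) and -0.0692 to 0.347 (zeb2.L) in the depleted libraries. In the undepleted ones they ran from -0.17 to 0.22 (sox11.S), -0.22 to 0.52 (irx1.S) and -0.28 to 0.55 (zeb2.S), and between library numbers from -1.33 to 0.45 (sox11.L). The cause of these turns was not tested. The shallowest library in counts outside the dominant entries, undepleted NWS library 2, held 87172, and a floor of 3 counts there stood for 2.75 CPM.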
